A study of Mus musculus with 11 samples.

Results

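The transcripts of 7 dual-specificity phosphatase genes (Dusp1, Dusp2, Dusp4, Dusp5, Dusp6, Dusp8 and Dusp10) and 3 Sprouty genes (Spry1, Spry2 and Spry4) were followed in infarcted mouse hearts. They were taken by gene symbol from a count table of 55421 mouse genes, and all 10 were found. Both families are feedback inhibitors of MAP kinases, the ERK, JNK and p38 enzymes that carry signals from growth factors, cytokines and stress to the nucleus. Bulk RNA of 11 hearts from female C57BL/6J mice, aged 8 weeks, was sequenced on day 3 after the operation. A ligature around the left anterior descending coronary artery had killed the heart muscle it feeds in 8 of them (myocardial infarction, MI). Osmotic minipumps under the skin then gave 4 of them the solvent DMSO (DMSO group) and 4 of them GI254023X at 100 mg/kg in DMSO, an inhibitor of the metalloprotease ADAM10 (A10i group). The remaining 3 mice had a sham operation and are labelled as having received DMSO (Sham group), so that the solvent was common to all 11 mice. Infarct and border zone were collected from the MI hearts and healthy tissue from the Sham hearts, so that infarction and the region sampled cannot be told apart, and no group received A10i without infarction.

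Dual-specificity phosphatases switch off MAP kinases by removing phosphate from both the threonine and the tyrosine of their activation loop. Dusp1, Dusp2, Dusp4 and Dusp5 encode nuclear enzymes that are induced by the kinases they inactivate, Dusp6 encodes a cytoplasmic enzyme selective for ERK, and Dusp8 and Dusp10 encode enzymes that prefer JNK and p38. Sprouty proteins act further upstream, where they restrain the Ras and Raf step between receptor tyrosine kinases and ERK. In the heart these pathways take part in hypertrophic growth, cell survival and the response to injury, and many of the feedback genes are transcribed within minutes of ERK activation.

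The promoters of 3 of the genes are shown because they hold the motifs that were searched for, the serum response factor motif called CArG box in Dusp5 and the cyclic AMP response element (CRE, TGACGTCA) in Dusp1 and Dusp8. Each run is the RefSeq window of 300 bases, from 250 bases before to 50 bases after the RefSeq transcript start, 5′ to 3′ on the strand of the gene in GRCm38.p6, with the motifs in capitals. Dusp5 lies at chr19:53528895-53529194 on the plus strand, Dusp1 at chr17:26508423-26508722 on the minus strand and Dusp8 at chr7:142095235-142095534 on the minus strand. These starts lie 36 bases from the 5′ end of the counted gene for Dusp5, 559 bases for Dusp8 and 53656 bases for Dusp1, whose gene as annotated reaches far upstream. The nearest annotated transcript start is 36, 12 and 0 bases away.
Dusp5: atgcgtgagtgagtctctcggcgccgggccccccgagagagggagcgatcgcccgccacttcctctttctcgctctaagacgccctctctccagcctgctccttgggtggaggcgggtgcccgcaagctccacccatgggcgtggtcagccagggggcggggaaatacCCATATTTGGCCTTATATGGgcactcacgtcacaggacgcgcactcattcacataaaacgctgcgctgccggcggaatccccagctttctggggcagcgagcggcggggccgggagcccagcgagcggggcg
Dusp1: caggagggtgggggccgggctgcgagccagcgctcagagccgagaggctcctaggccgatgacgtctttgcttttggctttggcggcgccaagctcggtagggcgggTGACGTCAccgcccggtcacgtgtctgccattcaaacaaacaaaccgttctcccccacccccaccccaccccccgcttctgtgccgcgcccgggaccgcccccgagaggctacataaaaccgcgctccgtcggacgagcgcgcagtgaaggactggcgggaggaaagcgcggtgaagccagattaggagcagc
Dusp8: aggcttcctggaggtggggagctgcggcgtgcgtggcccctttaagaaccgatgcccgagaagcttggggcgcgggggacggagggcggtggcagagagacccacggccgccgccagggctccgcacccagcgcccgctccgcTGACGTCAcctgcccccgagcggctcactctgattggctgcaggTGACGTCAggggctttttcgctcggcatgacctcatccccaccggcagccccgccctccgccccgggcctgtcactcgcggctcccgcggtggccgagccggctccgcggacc

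The promoter of Dusp5 held a pair of adjacent CArG boxes that shared no base, CCATATTTGG from 82 bases and CCTTATATGG from 72 bases before the start. Dusp8 held the CRE at 107 and at 63 bases before the start, and Dusp1 held it at 143 bases before the start. Of 32851 mouse promoters of the same length, 1.63% held a CArG box on either strand and 1.79% held a CRE. The AP-1 motif TGANTCA was in 7.81% of them and in 0 of the 8 promoters of these genes that could be matched, which left Dusp4 and Spry4 out. A match describes the letters of the window and not binding by a factor.

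Levels of different genes were compared as counts per 1000000 counted reads (CPM, with library sizes scaled by TMM) divided by the kilobases of exon (CPM per kb), since longer transcripts give more reads. In Sham hearts Dusp1 was the most abundant, at 12.6 ± 0.629 CPM per kb (SD, n = 3), followed by Dusp8 at 11.8 ± 1.10 (n = 3), Spry1 at 9.79 ± 0.795 (n = 3) and Spry2 at 8.83 ± 0.290 (n = 3). Dusp1 and Dusp8 overlapped between mice, and so did Spry1 and Spry2. Each Dusp8 value (10.7 to 12.9 CPM per kb) was above each Spry1 value (8.97 to 10.6). Dusp6 at 5.46 ± 0.455 CPM per kb (n = 3) was clearly below Spry2. Spry4 at 2.69 ± 0.243 and Dusp10 at 2.33 ± 0.229 CPM per kb (n = 3 each) followed, again with spreads that reached each other. The scarcest were Dusp5 at 1.57 ± 0.169, Dusp4 at 0.611 ± 0.239 and Dusp2 at 0.119 ± 0.111 CPM per kb (n = 3 each). After MI, Dusp1 remained at the top with 22.3 ± 3.28 CPM per kb in DMSO and 21.1 ± 3.65 in A10i hearts (n = 4 each), and Dusp2 remained at the bottom with 0.577 ± 0.211 and 0.543 ± 0.0520 (n = 4 each). Dusp5 moved up from rank 8 of 10 in Sham hearts to rank 6 in DMSO and rank 7 in A10i hearts.

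**Figure D1:**
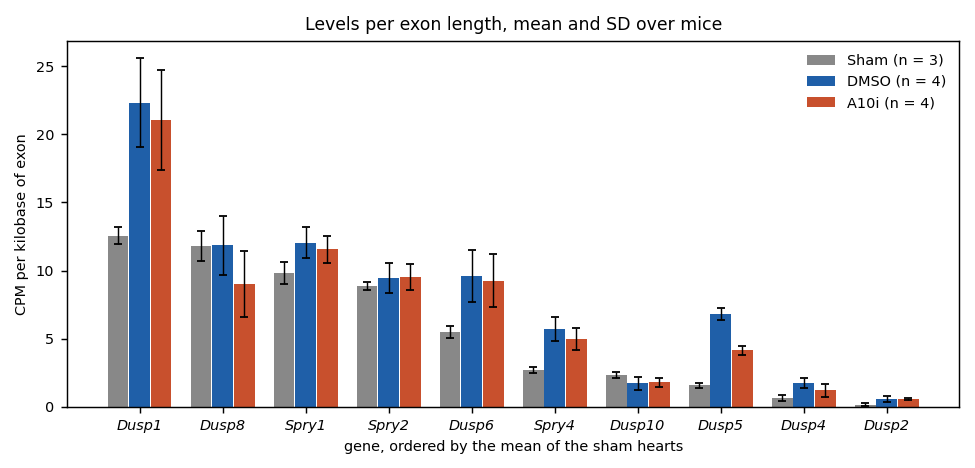
Bars give the mean CPM per kilobase of exon of each gene in the Sham (n = 3), DMSO (n = 4) and A10i (n = 4) hearts, with the SD as error bar, and genes are ordered by their Sham mean. Dusp1 is highest and Dusp2 lowest in each group, and the Dusp5 bar of the DMSO hearts (6.81 ± 0.414) stands above those of the A10i (4.14 ± 0.347) and Sham hearts (1.57 ± 0.169).

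After infarction in solvent-treated mice, Dusp1, Dusp4, Dusp5, Dusp6 and Spry4 rose and none of the 10 genes fell. Each gene was tested with edgeR's quasi-likelihood test over all 17117 genes that passed the count filter, and a Benjamini-Hochberg adjusted p under 0.01 was taken as a change. By this measure 5 of 10 genes rose, beside 12.9% of all tested genes that rose and 9.6% that fell. The median log2 fold change of the 10 genes was 0.82, beside 0.00 over all genes. At an unadjusted p under 0.05, 7 of the 10 were higher and 1, Dusp10, was lower, beside 25.9% and 23.4% of all genes. Dusp10 was also lower at this cut with DESeq2 (unadjusted p = 0.0432) and limma-voom (unadjusted p = 0.0273). At an adjusted p under 0.01, edgeR, DESeq2 and limma-voom each called 0 lower. In 7 of 10 genes every DMSO heart lay above every Sham heart, as it did for 25.1% of all genes. In bulk RNA, more cells of a type that carries a transcript and more transcript per cell cannot be told apart.

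Dusp5, which encodes a nuclear phosphatase specific for ERK, showed the clearest separation. The Sham hearts held 3.63, 3.64 and 4.35 CPM, the DMSO hearts 15.7, 16.2, 17.7 and 17.7 CPM, and the A10i hearts 9.55, 9.93, 9.95 and 11.5 CPM. The 3 groups did not overlap in any pair, with the A10i hearts between the other groups. Dusp5 was 4.34-fold higher in DMSO than in Sham hearts (log2 fold change 2.12, SE 0.12, edgeR adjusted p = 1.15e-05) and had the 13th smallest p of all tested genes. These values rest on 84 to 532 counts per library. An antisense gene that shares exon bases with Dusp5, AC137853.2, had 0 to 8 counts per library.

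Dusp1, the prototype of the family and an inhibitor of all 3 MAP kinase branches, held 39.2, 42.6 and 43.0 CPM in Sham hearts, 64.1, 66.5, 77.4 and 87.7 in DMSO hearts and 56.1, 67.5, 69.8 and 85.5 in A10i hearts. Both MI groups were above every Sham heart and overlapped each other. Dusp1 was 1.77-fold higher in DMSO than in Sham hearts (log2 fold change 0.83, SE 0.12, edgeR adjusted p = 0.000716). Dusp4, a nuclear phosphatase that acts on ERK and JNK, held 1.29, 1.30 and 2.43 CPM in Sham hearts, 3.84, 3.92, 4.99 and 5.97 in DMSO hearts and 2.31, 2.34, 3.13 and 5.19 in A10i hearts. The highest Sham heart lay inside the A10i range and below the DMSO range. The rise of Dusp4 in DMSO over Sham hearts was 2.77-fold (log2 fold change 1.47, SE 0.28, edgeR adjusted p = 0.00293).

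Dusp2, known from activated leukocytes, was close to the detection limit. The Sham hearts held 0.0374, 0.202 and 0.476 CPM, the DMSO hearts 0.698, 0.972, 1.26 and 1.69 CPM, and the A10i hearts 1.01, 1.03, 1.07 and 1.24 CPM. Every MI heart was above every Sham heart. The Sham values came from 1, 5 and 11 counts, so that the fold change against them is poorly determined. Its log2 fold change in DMSO over Sham hearts was 2.29 (95% interval 1.00 to 3.57) with an edgeR adjusted p of 0.0117, which missed the threshold. It passed in 6 of 14 alternatives (adjusted p from 0.00125 to 0.0526), among them those without Sham replicate S1 or without DMSO replicate A128. Its log2 fold change was 3.24 without S1 and 1.75 without S2.

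Dusp6, the cytoplasmic ERK phosphatase, held 15.5, 17.8 and 18.1 CPM in Sham hearts, 25.1, 28.0, 28.3 and 38.9 in DMSO hearts and 22.1, 27.2, 30.2 and 36.6 in A10i hearts. Both MI groups were above the Sham hearts and covered nearly the same range. The rise in DMSO over Sham hearts was 1.75-fold (log2 fold change 0.81, SE 0.15, edgeR adjusted p = 0.00273). Without Sham replicate S1, S2 or S3 the call of Dusp6 in DMSO over Sham hearts was lost, and so was that of Dusp4 without S1 or S3, with edgeR adjusted p-values of up to 0.0180 and 0.0185. Without S3 the count of genes that rose fell from 5 to 3. Over all tested genes, the number called in either direction fell from 3858 to 1542 without S1, 1525 without S2 and 1540 without S3. The log2 fold change of Dusp6 stayed at 0.74 to 0.85 in these 3 fits.

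Dusp8 and Dusp10, whose enzymes prefer JNK and p38, did not pass the threshold, whereas Dusp1 and Dusp4, whose enzymes also act beyond ERK, did. Dusp8, an enzyme abundant in heart and brain, held 51.9, 57.4 and 62.7 CPM in Sham hearts, 51.0, 51.3, 54.9 and 73.4 in DMSO hearts and 30.7, 39.8, 46.8 and 58.5 in A10i hearts. DMSO and Sham hearts overlapped, and the log2 fold change between them was 0.00 (95% interval -0.29 to 0.30, edgeR adjusted p = 0.982). Dusp10 held 6.32, 7.30 and 7.66 CPM in Sham hearts, 3.89, 4.52, 4.94 and 7.29 in DMSO hearts and 4.54, 4.72, 5.71 and 6.77 in A10i hearts. It was the single gene of the 10 with a negative log2 fold change in DMSO over Sham hearts, of -0.47 (SE 0.21, edgeR adjusted p = 0.0989), and 3 of the 4 DMSO hearts were below every Sham heart. Without DMSO replicate A105, the highest of the DMSO hearts, Dusp10 was called lower (log2 fold change -0.69, edgeR adjusted p = 0.00819).

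Of the Sprouty genes, Spry4 rose, whereas Spry1 and Spry2 did not pass the threshold. Spry4 held 11.5, 13.3 and 13.6 CPM in Sham hearts, 22.0, 26.4, 27.4 and 32.2 in DMSO hearts and 18.1, 24.6, 25.8 and 26.6 in A10i hearts. All MI hearts were above the Sham hearts, with a 2.10-fold rise in DMSO hearts (log2 fold change 1.07, SE 0.13, edgeR adjusted p = 0.000433). Spry1 held 26.1, 28.6 and 30.7 CPM in Sham hearts, 31.8, 32.8, 36.0 and 39.1 in DMSO hearts and 30.5, 32.3, 34.2 and 37.4 in A10i hearts. Its DMSO hearts were all above the Sham hearts by a small margin, with a log2 fold change of 0.29 (95% interval 0.07 to 0.51, edgeR adjusted p = 0.0392). Spry2 held 17.8, 18.6 and 18.9 CPM in Sham hearts, 17.8, 17.9, 21.0 and 22.2 in DMSO hearts and 17.5, 18.9, 21.0 and 21.9 in A10i hearts. The groups overlapped, and the log2 fold change of DMSO over Sham hearts was 0.09 (95% interval -0.14 to 0.32, edgeR adjusted p = 0.502).

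**Figure D2:**
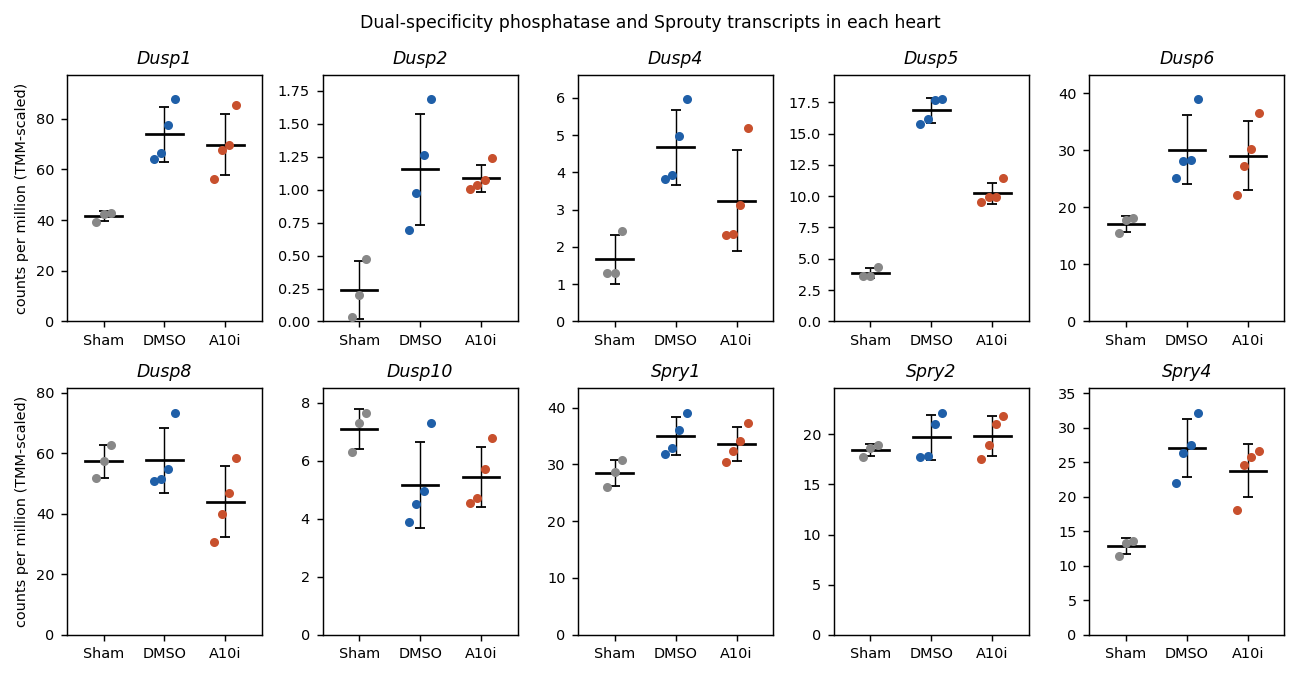
Points give the CPM in each heart on axes that start at 0, with horizontal bars for the mean and error bars for the SD of the Sham (n = 3), DMSO (n = 4) and A10i (n = 4) groups. For Dusp5 the groups stand apart in 3 tiers of 3.63 to 4.35, 9.55 to 11.5 and 15.7 to 17.7 CPM, while in the other 9 panels the A10i and DMSO points overlap.

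In A10i-treated infarcted hearts, Dusp1, Dusp2, Dusp5, Dusp6 and Spry4 were higher than in Sham hearts and none of the 10 genes was lower. These were 5 of 10 genes, beside 13.7% of 16971 tested genes that rose and 9.11% that fell, and their median log2 fold change was 0.76, beside -0.01 over all genes. At an unadjusted p under 0.05, 7 genes were higher and 1, again Dusp10, was lower, beside 25.5% and 22.8% of all genes. At this cut DESeq2 had Dusp10 (unadjusted p = 0.0371) and Dusp8 (0.0388) lower, and so did limma-voom (0.0309 and 0.0423). At an adjusted p under 0.01, edgeR, DESeq2 and limma-voom each called 0 lower. In 5 of 10 genes every A10i heart was above every Sham heart, as in 24.8% of all genes. Dusp1 was 1.68-fold higher (log2 fold change 0.75, SE 0.12, edgeR adjusted p = 0.00177), Dusp6 1.70-fold (0.77, SE 0.16, adjusted p = 0.00465) and Spry4 1.86-fold (0.90, SE 0.14, adjusted p = 0.000976). Dusp5 was 2.65-fold higher (log2 fold change 1.40, SE 0.13, edgeR adjusted p = 0.000106).

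Dusp2 passed the threshold here (log2 fold change 2.22, SE 0.49, edgeR adjusted p = 0.00555) and Dusp4 did not (0.95, SE 0.35, adjusted p = 0.0562), the reverse of the DMSO comparison. The size of the Dusp2 difference rested on the few Sham counts, with a log2 fold change of 3.16 without Sham replicate S1 and 1.68 without S2. In the direct comparison of A10i with DMSO hearts, the log2 fold changes of Dusp2 and Dusp4 were -0.07 and -0.52, with edgeR adjusted p-values of 0.939 and 0.434. Without Sham replicate S1, S2 or S3, or without A10i replicate A120, the count of genes that rose in A10i over Sham hearts fell from 5 to 3. Over all tested genes, the number called in either direction fell from 3879 to 1620, 1714, 1664 and 2788 without these 4 libraries. The log2 fold change of Dusp6 stayed at 0.69 to 0.80 in these fits. The calls lost were those of Dusp6 without each of these 4 libraries, of Dusp1 without S1, and of Dusp2 without S2, S3 or A120, and Dusp2 was also lost without A119. Dusp8 (log2 fold change -0.38), Dusp10 (-0.38), Spry1 (0.24) and Spry2 (0.11) had edgeR adjusted p-values of 0.0516 to 0.375.

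The sham-operated hearts served both comparisons, so their fold changes are not independent of each other. On the CPM scale, the rise of the A10i mean over the Sham mean was 49.0% of that of the DMSO mean for Dusp5, with single A10i hearts at 43.8 to 58.7%. It was 87.0% for Dusp1 (44.8 to 136%), 91.6% for Dusp6 (38.6 to 150%), 77.1% for Spry4 (37.3 to 96.9%) and 52.3% for Dusp4 (21.2% to above the DMSO mean). For each of these genes but Dusp5, the highest A10i heart came near or passed the DMSO mean.

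**Figure D3:**
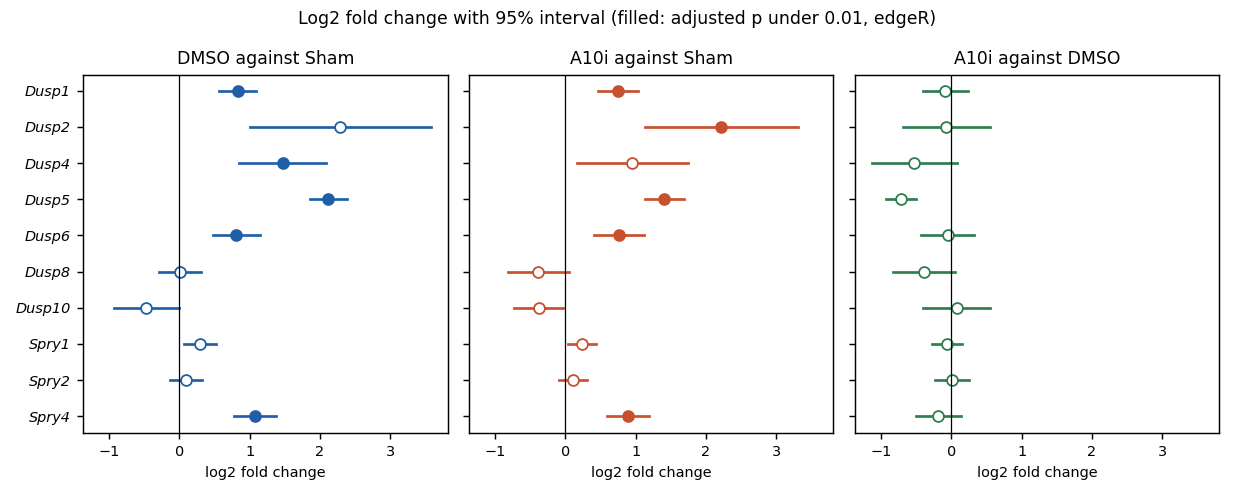
Points give the edgeR log2 fold change of each gene with its 95% interval in 3 comparisons, filled where the adjusted p was under 0.01. Filled points lie to the right of 0 for 5 genes in each comparison with Sham hearts, and in A10i against DMSO all points are open and Dusp5 (-0.72, interval -0.93 to -0.50) is the single gene whose interval leaves out 0.

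The inhibitor was compared directly with its solvent in infarcted hearts, where Dusp5 was lower with A10i and the other 9 genes overlapped between the groups. No gene of the 10 passed an adjusted p of 0.01 in edgeR's test, and neither did any of the 16792 genes tested (0%). At an unadjusted p under 0.05, 1 of 10 genes was lower, beside 6.73% of all genes, and 0 were higher, beside 7.1%. Dusp5 was also the single gene of the 10 without overlap between the groups, being lower in A10i hearts, as were 4.11% of all genes, while 4.01% of all genes were higher without overlap. The log2 fold change was negative for 8 of 10 genes, with a median of -0.08 beside 0.00 over all genes.

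Dusp5 was lower in each of the 4 A10i hearts than in any of the 4 DMSO hearts, with means of 10.2 ± 0.857 and 16.8 ± 1.02 CPM (SD, n = 4 each). The A10i level was 1.64-fold lower (log2 fold change -0.72, SE 0.10, 95% interval -0.93 to -0.50). Its unadjusted p of 1.84e-05 was the third smallest of all tested genes, and its edgeR adjusted p was 0.0479, which missed 0.01 but not 0.05. At an adjusted p under 0.05, 0.0536% of all genes were lower. The outcome of the test depended on the tool. DESeq2 gave Dusp5 a log2 fold change of -0.72 with an adjusted p of 6.6e-07 and called 0.678% of the 18151 genes it gave an adjusted p lower at 0.01, whereas limma-voom gave an adjusted p of 0.0594. Over 15 alternatives the log2 fold change lay between -0.78 and -0.68 and the adjusted p between 6.6e-07 and 0.197, and 3 of the 15 passed 0.01, namely DESeq2, no filter on low counts (0.00397) and a fit of all 11 libraries (0.00823). Without A10i replicate A120 the adjusted p was 0.197.

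For the other genes, the intervals of the A10i to DMSO difference show which sizes the data leave possible. They were narrow for Spry1 (log2 fold change -0.06, 95% interval -0.27 to 0.15) and Spry2 (0.01, -0.23 to 0.25). They were wider for Dusp1 (-0.08, -0.40 to 0.23), Dusp6 (-0.05, -0.43 to 0.33), Dusp10 (0.08, -0.39 to 0.56) and Spry4 (-0.18, -0.50 to 0.14), and widest for Dusp2 (-0.07, -0.69 to 0.54). Dusp4 (-0.52, -1.13 to 0.08, edgeR adjusted p = 0.434) and Dusp8 (-0.39, -0.82 to 0.05, adjusted p = 0.42) had the next largest differences after Dusp5. In Dusp4, 3 of 4 A10i hearts lay below every DMSO heart and A116 lay among them, and in Dusp8 the A10i heart A119 lay among the DMSO hearts. Single libraries moved both values. With each library left out in turn, the log2 fold change of Dusp4 ranged from -0.84 (without A116, edgeR adjusted p = 0.13) to -0.39 (without A129), and that of Dusp8 from -0.56 (without A119) to -0.25 (without A117 or A105), with adjusted p-values of 0.13 to 0.714 and 0.334 to 0.683.

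Levels of some cell type markers differed between the groups. In bulk RNA such levels do not tell the number of cells from the transcript per cell. The summed level of 12 neutrophil markers was 3.48 to 4.88 CPM in Sham, 106 to 215 in DMSO and 28.0 to 76.7 in A10i hearts. All 9 of these markers that were tested were lower in A10i than in DMSO hearts at an unadjusted p under 0.05, beside 6.73% of all genes. None of the 9 passed an adjusted p of 0.01 in edgeR's test. Of the 12 markers, Ly6g and Trem1 were at 0 in the Sham hearts, and each other marker had counts there. Ly6g was also near the floor after MI, at 0.0392 to 0.268 CPM in DMSO and 0.0413 to 0.155 CPM in A10i hearts. The DMSO heart A127 had the lowest neutrophil sum of its group (106 CPM) and the lowest Dusp5 of its group (15.7 CPM), and the DMSO heart A105 had the highest neutrophil sum (215 CPM) with 16.2 CPM of Dusp5. Within the A10i group the neutrophil sum spanned 28.0 to 76.7 CPM while Dusp5 stayed at 9.55 to 11.5 CPM. The part of neutrophils in the Dusp5 difference was not tested.

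**Figure D4:**
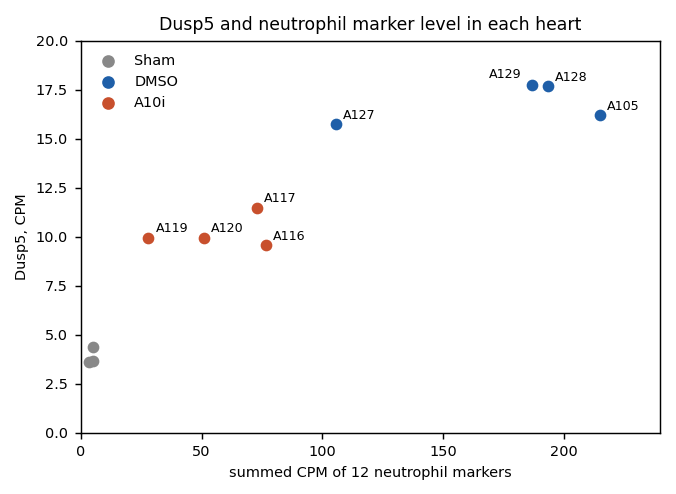
Each point is 1 heart, with the summed CPM of the 12 neutrophil markers on the horizontal axis and the CPM of Dusp5 on the vertical axis, and MI hearts carry their animal number. Sham hearts lie at 3.48 to 4.88 on the horizontal axis, A10i hearts at 28.0 to 76.7 and DMSO hearts at 106 to 215, in the same order of groups as Dusp5.

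Other cell type markers moved in other directions. The sum of 10 macrophage markers was 355 to 390 CPM in Sham, 601 to 1026 in DMSO and 777 to 1461 in A10i hearts, and that of 8 fibroblast markers was 1150 to 1236, 1908 to 6392 and 4824 to 8918 CPM. Both overlapped between the MI groups, with higher medians in A10i hearts. The sum of 9 cardiomyocyte markers was 71707 to 74701 CPM in Sham, 35714 to 50829 in DMSO and 40715 to 56113 in A10i hearts. Its largest member was Myh6, with means of 38225, 16782 and 22010 CPM in these groups. In DMSO over Sham hearts 2 of the 9 markers, Tnnt2 and Actn2, had a positive log2 fold change. The other 7 had a negative one, and 4 were called lower, beside 9.6% of all genes. In A10i over Sham hearts all 9 were negative and 3 were called lower, beside 9.11% of all genes. The sum of 7 endothelial markers was 951 to 985, 803 to 936 and 921 to 1027 CPM, and 10 T and B lymphocyte markers summed to at most 5.35 CPM in any heart. The sum of 7 smooth muscle and pericyte markers was 1003 to 1068 CPM in Sham, 681 to 824 in DMSO and 873 to 924 in A10i hearts, so that it was higher in A10i than in DMSO hearts without overlap. All 7 of these markers had a positive log2 fold change of A10i over DMSO, and 0 were called by edgeR at an adjusted p of 0.01. At an unadjusted p under 0.05, 4 of the 7 were higher, beside 7.1% of all genes. The part of these cells in the changes of the 10 genes was not tested.

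The transcripts of other genes that ERK switches on formed the nearest comparison with Dusp5. Of 17 such genes, chosen with earlier results of these data known, 16 were tested, and their counts are given as description. In DMSO over Sham hearts 13 of them rose and 0 fell, beside 12.9% and 9.6% of all genes, with a median log2 fold change of 1.63. In A10i over Sham hearts 11 rose and 1 fell, beside 13.7% and 9.11%, with a median of 1.08. Between A10i and DMSO hearts 0 passed an adjusted p of 0.01, and the median was -0.34. At an unadjusted p under 0.05, 9 were lower and 0 higher, beside 6.73% and 7.1% of all genes. The log2 fold change of A10i over DMSO was positive for 3 of the 16, Epha4 (0.33), Etv1 (0.10) and Ccnd1 (0.09). It was near 0 for Etv4 (-0.02) and Emp1 (-0.08). Ier3, an early response gene that guards against cell death, had the smallest p of the list. It was at 24.4 to 32.0 CPM in Sham, 66.6 to 91.6 in DMSO and 46.1 to 53.4 in A10i hearts, without overlap, with a log2 fold change of A10i over DMSO of -0.74 (SE 0.10, edgeR adjusted p = 0.0479).

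The growth factor Ereg and the AP-1 subunit Fosl1 had the largest rises of the list in DMSO over Sham hearts. Ereg was at 0 to 0.173 CPM in Sham, 2.18 to 5.85 in DMSO and 1.20 to 2.97 in A10i hearts. Fosl1 was at 0 to 0.130 CPM in Sham, 2.01 to 5.69 in DMSO and 0.743 to 1.74 in A10i hearts. The A10i hearts were below the DMSO hearts without overlap for Fosl1 and with overlap for Ereg, and edgeR's adjusted p-values of that difference were 0.107 and 0.173. Myc was at 14.6 to 26.1 CPM in DMSO and 5.98 to 13.0 in A10i hearts (log2 fold change -1.02, SE 0.25, edgeR adjusted p = 0.14). Whether these genes or the 10 feedback inhibitors share cells or a signal was not tested.

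**Figure D5:**
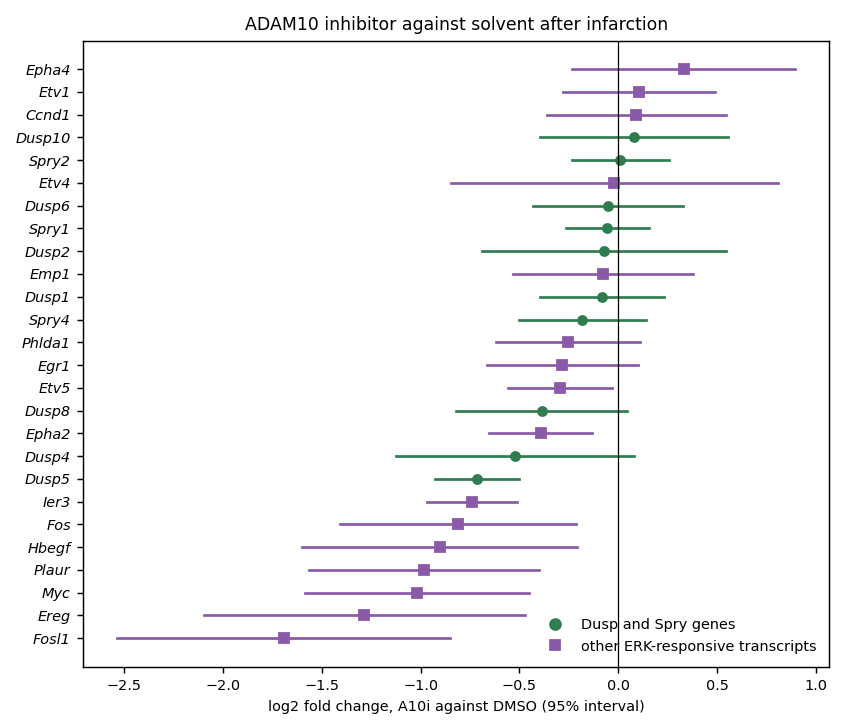
Points give the edgeR log2 fold change of A10i against DMSO hearts with its 95% interval for the 10 Dusp and Spry genes (circles) and 16 other ERK-responsive transcripts (squares), ordered by size. Dusp5 (-0.72) lies next to Ier3 (-0.74), and the other circles have intervals that hold 0.

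Relatives of these families and genes of the kinase cascade were read in the same way. Of 2 further MAP kinase phosphatases tested, Dusp7, a cytoplasmic ERK phosphatase, fell in DMSO against Sham hearts (log2 fold change -0.63, SE 0.12, edgeR adjusted p = 0.00344) from 78.0 to 79.9 CPM in Sham to 42.3 to 63.8 CPM. It was at 57.4 to 77.0 CPM in A10i hearts, with a log2 fold change over DMSO of 0.38 (SE 0.13, edgeR adjusted p = 0.252). Of 10 atypical dual-specificity phosphatases tested, Dusp19 was the single one called in DMSO against Sham hearts, where 12.9% of all genes rose and 9.6% fell. Its log2 fold change was -0.71 (SE 0.14, edgeR adjusted p = 0.00382). Dusp18 had the smallest p of this list between A10i and DMSO hearts (0.44, SE 0.20, edgeR adjusted p = 0.374). The Sprouty-related genes Spred3 (log2 fold change 1.62, SE 0.27, adjusted p = 0.00156) and Spred1 (0.62, SE 0.10, adjusted p = 0.00122) rose in DMSO over Sham hearts, and Spred2 had the smallest p of its list between A10i and DMSO hearts (0.20, SE 0.09, adjusted p = 0.364).

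Of 13 other inhibitors of receptor tyrosine kinase signals, 4 rose and 1 fell in DMSO over Sham hearts, beside 12.9% and 9.6% of all genes. The docking proteins Dok1 (log2 fold change 1.69, SE 0.37, edgeR adjusted p = 0.00759) and Dok2 (1.54, SE 0.19, adjusted p = 0.000413), which leukocytes express, rose most, and the receptor antagonist Lrig1 fell (-0.56, SE 0.10, adjusted p = 0.00188). Nf1, a brake on Ras, had the smallest p of this list between A10i and DMSO hearts (-0.24, SE 0.07, adjusted p = 0.19). Of 12 MAP kinases, 3 rose and 1 fell in DMSO over Sham hearts, beside the same 12.9% and 9.6% of all genes. Mapk13, a p38 isoform, rose from at most 0.0806 CPM in Sham hearts to 0.432 to 1.29 CPM, Mapk7 rose (log2 fold change 0.70, SE 0.13, adjusted p = 0.00313) and Mapk9, which encodes a JNK, fell (-0.40, SE 0.07, adjusted p = 0.00178). Mapk6 had the smallest p between A10i and DMSO hearts (-0.36, SE 0.13, adjusted p = 0.266).

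Of 10 MAP kinase kinases and Raf kinases, 0 rose and 1 fell in DMSO over Sham hearts at an adjusted p under 0.01, beside 12.9% and 9.6% of all genes. At an unadjusted p under 0.05, 2 were higher and 4 lower, beside 25.9% and 23.4% of all genes. The gene that fell was Map2k6, an activator of p38 (log2 fold change -1.56, SE 0.22, edgeR adjusted p = 0.000726). Map2k3, the other main activator of p38, had the smallest p between A10i and DMSO hearts (-0.28, SE 0.09, adjusted p = 0.217). In none of these lists did a gene pass 0.01 between A10i and DMSO hearts in edgeR's test.

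Within the groups, no common variation of the 10 genes as a block was seen from heart to heart. Noise from low counts was not separated from independent variation, and gene pairs outside the 10 were not examined. Each gene's deviation from its group mean (log2 CPM) was correlated with that of every other gene over the 11 libraries, which share their depth and scaling between genes. Of the 45 pairs, 26 had a positive Pearson's r and 4 had an r above 0.5, with a median of 0.04 and a range from -0.71 to 0.71. The highest values joined Dusp8 with Spry4 (0.71), Dusp10 with Spry4 (0.70) and Dusp8 with Dusp10 (0.63), and the lowest lay between Dusp6 and Spry2 (-0.71) and between Dusp5 and Dusp8 (-0.55). Of 16782 genes searched, Pdcd6 (r = 0.93), Cinp (0.93), Stam (0.91), Lins1 (0.91) and the pseudogene Ube2n-ps1 (0.91) were most like the mean deviation of the 10 genes over the 11 libraries. These are the highest values of a search over many genes in few libraries. Whether the search alone would give values so high was not tested. The mean takes the deviations of all 10 genes without scaling them by their spread. Dusp2, with its 1, 5 and 11 counts in Sham hearts, deviated by 1.08 in S1 and by -1.18 in S2. The mean deviation of the 10 genes was 0.0847 in S1 and -0.0823 in S2, so that Dusp2 weighed heavily in it.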

How the data were processed

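Poly(A) RNA of 11 mouse hearts was sequenced as strand-specific libraries. The authors aligned the reads to mm10 with GSNAP, after bcl2fastq (2.20.0), and counted uniquely aligned reads per gene with featureCounts (2.0.1) and an Ensembl annotation, and the deposited values are raw counts without normalization. The strand setting of the counting is not given in the sources used here. Totals were 25538009 to 29511768 counts in Sham, 22651265 to 29004048 in DMSO and 21702623 to 25695213 in A10i libraries. The 92 spike-in rows (14 to 55 counts per library) were left out.

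Each pair of groups was fitted on its own libraries in R 4.3.3 with edgeR 4.0.16 (filterByExpr, TMM, robust quasi-likelihood F-test, two-sided, Benjamini-Hochberg over all genes tested, threshold 0.01). CPM used TMM factors over 11 libraries, and deviations used log2 CPM with a prior count of 2. RLE, library size alone, no filter, a mean of at least 20 counts, DESeq2 1.42.0, limma-voom (limma 3.58.1), a joint fit, a threshold of 0.05 and omission of each library were the alternatives. The scripts were tested on simulated data. Groups were compared as separate mice.

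The 10 genes and all lists were chosen with earlier results of these data known. From each pathway list the text names every gene past 0.01 between A10i and DMSO or else that with the smallest p, and up to 2 higher and 2 lower with the largest change in DMSO over Sham, as well as the 5 genes most like the mean deviation of the 10. Fos, Hbegf, Plaur, Epha2, Etv5 and other genes of the plot of ERK-responsive transcripts were named after their values were seen. So were Myc, Epha4, Etv1, Ccnd1, Etv4, Emp1, Myh6, Tnnt2, Actn2 and the 2 markers at 0. Promoter sequences came from RefSeq (GRCm38.p6), which held 8 of the 10 genes, and the positions of all 10 genes in the table equal those of GENCODE M21.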

Additional observations from a re-analysis of the deposited data

How the results depend on the processing

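The log2 fold changes of the 10 genes were recomputed under each alternative. Library size alone shifted the median over all genes to 0.21 in DMSO and 0.18 in A10i against Sham, so the values given are relative to TMM, which leaves it at 0.00 and -0.01. Between A10i and DMSO, 1 gene (Dusp5) was called lower without the filter, with DESeq2, with all 11 libraries in 1 fit and at an adjusted p under 0.05, against 0 otherwise. The count lower at an unadjusted p under 0.05 was 2, against 1, with library size alone, without the filter and with all 11 libraries, and 1 to 2 when single libraries were left out. Leaving out single libraries gave 3 to 6 genes higher in DMSO and 3 to 5 in A10i over Sham, and 0 to 1 lower in DMSO. The sign of small A10i to DMSO differences turned with single libraries left out, with ranges of -0.20 to 0.0140 for Dusp1, -0.25 to 0.17 for Dusp2, -0.18 to 0.10 for Dusp6, -0.0426 to 0.29 for Dusp10, -0.11 to 0.00196 for Spry1 and -0.0392 to 0.0709 for Spry2. That of Dusp8 in DMSO over Sham ranged from -0.15 to 0.0681. Limma-voom turned Dusp2 (0.0110) and Dusp8 (-0.00741 in DMSO over Sham), and library size alone turned Spry2 (-0.000945). None of these passed a threshold, and the cause was not tested. Dusp2 was called higher in DMSO over Sham in 6 of 14 alternatives. With a mean of at least 20 counts Dusp2 was not tested in A10i against Sham. No paired analysis was possible because the groups share no replicate numbers. Low counts limit Dusp2 most.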
